A study of Mus musculus with 2 samples.

Results

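The 10 genes described here mark the base of the intestinal crypt or answer to Wnt signalling there: Lgr5, Olfm4, Ascl2, Smoc2, Axin2, Rnf43, Znrf3, Ephb2, Ephb3 and Myc. They were chosen by name, and all 10 were among the 22253 genes of the RNA matrix. All 10 were also among the 15258 genes with a count in the analysed cells and among the 11061 genes tested between genotypes over all cells. Cells came from cultures of mouse distal small intestine grown as organoids, with 3 Etv1 mutant cultures and 2 control cultures. All 5 carried the reporters Neurog3-RFP and Gcg-Venus, so the control cultures were reporter cultures and not wild type. After a sort, the cells of each culture received a hashtag oligo of their own and went into 1 pool for sequencing, and the RNA and hashtag matrices hold the same 3409 barcodes. The labels call the cultures biological replicates, but do not say whether they came from separate animals, which mutation of Etv1 they carried or which gate was used in the sort. The p-values below therefore measure the spread between these 5 cultures.

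Wnt proteins stabilise beta-catenin, which enters the nucleus and activates genes together with TCF factors. In the crypt this signal is strongest at the base, where it maintains the stem cells, and it fades toward the villus. Several of its target genes are themselves parts of the pathway: some raise the response of a cell to Wnt, some dampen it, and the Eph receptors keep cells of different crypt heights apart.

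Of 2725 barcodes that passed the filters on detected genes and mitochondrial counts, 1432 carried the hashtag of 1 culture: 282, 281 and 197 in mutant cultures 1, 2 and 3, and 323 and 349 in control cultures 1 and 2. Hashtag counts were low, with a median of 71 a barcode over all 3409 barcodes and a median share of 43.4% for the top hashtag. Another caller, MULTIseqDemux, gave 272, 362 and 239 cells to the mutant cultures and 365 and 215 to the controls. The genotype of a cell rests on these calls, and their error rate was not tested. The cells of a culture held 4193197 to 6541047 RNA counts in the mutants and 7000900 and 7254380 in the controls. Etv1 itself stood at 3.06 to 3.21 CPM (counts per 1000000 counts) in mutant cultures and at 6.20 and 6.29 CPM in control cultures, a log2 difference of -1.0 ± 0.23 (SE; adjusted p = 1.0). Since the labels do not say which part of the gene was changed, this level is no check of the genotype. All 5 mesenchymal markers looked for were at 0. Of the 5 immune markers Cd3e and Tyrobp were at 0, and the list summed to 0, 0 and 1.43 CPM in mutant cultures 1, 2 and 3, against 0.138 and 0 CPM in control cultures 1 and 2, with 5.73 CPM in the stem-like cells of mutant culture 3. Of the 3 endothelial markers Cdh5 was at 0, and the list summed to at most 0.306 CPM in any culture. Of the 3 neuronal or glial markers Sox10 was at 0, and the list summed to 0.802 to 1.91 CPM in mutant cultures, against 1.79 and 3.0 CPM in control cultures. The summed enteroendocrine markers lay at 158 to 176 CPM in mutant cultures, against 636 and 193 CPM in control cultures. The summed Paneth markers lay at 1035 to 2325 CPM in mutant cultures, against 6765 and 2625 CPM in control cultures, so control culture 1 stood apart in both.

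Cells were grouped into 12 clusters with the 10 genes left out of the genes used for clustering and out of the markers used for naming. The stem-like cluster (234 cells, median 18700 counts a cell) passed on 8 of 11 other stem markers, such as Slc12a2 and Rgmb. By fold alone, its 10 leading genes were Fyb, Dclk1, Rgs13, Gng13, Edn1, Avil, Kctd12, Trpm5, Sh2d6 and Olfm4, and 4 of these (Dclk1, Avil, Trpm5 and Sh2d6) were on the list of markers of tuft cells, a chemosensory type. Among genes found in at least 25% of its cells, a limit chosen after seeing the data, the leading 10 included Olfm4, Lgr5 and Smoc2, beside Edn1, Ccn1 and Pdgfa, and no tuft marker. The name stem-like depends on that limit. With leading genes read by fold alone, the naming rule would have left the cluster unnamed, since they held more tuft than stem markers. The other named classes were cycling-like (2 clusters of 224 and 87 cells), enterocyte-like (232 cells of 3 clusters), goblet/Paneth-like (81 cells) and enteroendocrine-like (54 cells, median 9724 counts). Clusters 3 and 9, with 179 and 76 cells, had too few markers for a name. Clusters 7 and 11, with 185 and 80 cells, held cells of low depth, with medians of 5860 and 1342 counts. Cluster 7 also had a median of 18.4% mitochondrial counts, against at most 4.29% in any other cluster. Its leading genes were mt-Nd6, mt-Nd1, mt-Nd2 and mt-Nd3. Cluster 7 passed on 3 of 10 cycling markers and cluster 11 on 6 of 10 Paneth markers. Neither had such a marker among its 10 leading genes, so at this low depth both stayed unnamed. Of the 234 stem-like cells, 8 showed at least 3 tuft markers, and these markers summed to 0, 20.9 and 63.0 CPM in the stem-like cells of mutant cultures 1 to 3, against 47.1 and 53.5 CPM in those of control cultures 1 and 2. Their part in the results was not tested beyond the repeat without them, given with the processing.

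A first look at all 10 genes showed 3 patterns over the classes. By the mean over the 5 cultures, 7 genes were highest in stem-like cells among the 5 named classes (Lgr5, Olfm4, Ascl2, Smoc2, Axin2, Rnf43 and Myc), and 3 were highest in enteroendocrine-like cells (Znrf3, Ephb2 and Ephb3). Enterocyte-like cells held the lowest level of 9 genes, with Myc the exception. Because cells were grouped by their transcripts, the classes are described and not tested against each other.

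**Figure D1:**
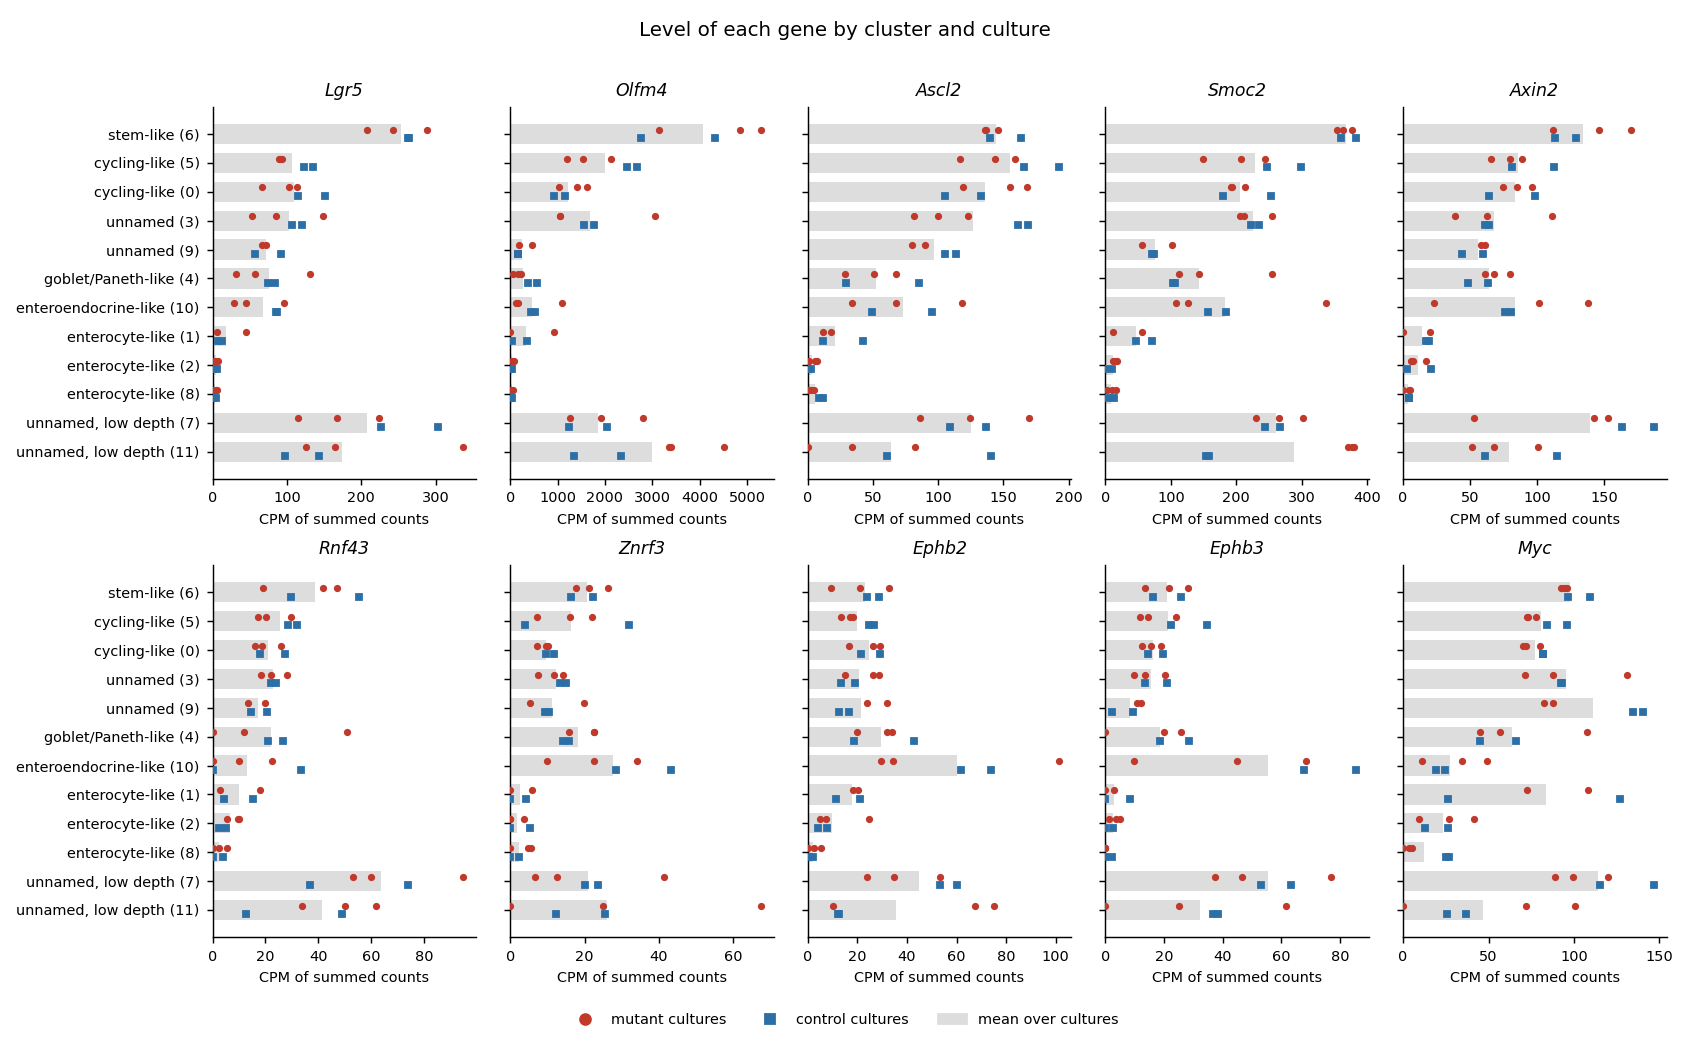
Level of each of the 10 genes (CPM, horizontal axis) in each of the 12 clusters (down the page). Each point is 1 culture with at least 5 cells in that cluster, red circles for Etv1 mutant and blue squares for control cultures, and the grey bar is the mean. Olfm4 and Smoc2 peak in the stem-like cluster, Ephb2 peaks in the enteroendocrine-like cluster, and the 3 enterocyte-like clusters hold the lowest levels of most genes.

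Reference promoters are shown for one gene with its peak in stem-like cells (Olfm4), one Wnt feedback gene (Axin2) and one gene high in enteroendocrine-like cells (Ephb3), as examples of the stretch that was searched for the motif of TCF factors. Sequences are from RefSeq on GRCm38.p6, plus strand in all 3 cases, running 250 bases before the annotated start in lower case and 50 bases from it in capitals. They cover chr14:80000052-80000351 for Olfm4, whose RefSeq start lies inside the longer span of the gene in GENCODE, chr11:108920099-108920398 for Axin2 and chr16:21204545-21204844 for Ephb3.
Olfm4: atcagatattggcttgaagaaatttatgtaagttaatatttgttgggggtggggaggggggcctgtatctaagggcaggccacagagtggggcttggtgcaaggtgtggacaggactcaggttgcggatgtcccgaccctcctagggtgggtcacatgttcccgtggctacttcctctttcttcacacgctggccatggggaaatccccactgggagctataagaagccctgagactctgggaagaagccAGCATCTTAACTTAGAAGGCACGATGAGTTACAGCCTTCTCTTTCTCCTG
Axin2: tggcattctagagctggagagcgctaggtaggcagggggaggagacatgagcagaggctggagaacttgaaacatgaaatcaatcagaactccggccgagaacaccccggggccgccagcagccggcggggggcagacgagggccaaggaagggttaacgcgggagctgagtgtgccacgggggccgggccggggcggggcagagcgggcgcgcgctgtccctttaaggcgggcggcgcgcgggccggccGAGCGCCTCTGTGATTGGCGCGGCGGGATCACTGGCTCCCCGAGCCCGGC
Ephb3: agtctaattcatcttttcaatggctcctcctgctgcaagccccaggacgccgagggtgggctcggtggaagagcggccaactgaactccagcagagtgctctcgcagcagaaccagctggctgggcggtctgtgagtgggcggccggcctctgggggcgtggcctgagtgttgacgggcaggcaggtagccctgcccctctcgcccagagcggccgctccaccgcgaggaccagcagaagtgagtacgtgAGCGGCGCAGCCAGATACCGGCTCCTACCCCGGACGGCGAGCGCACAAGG

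The TCF core CTTTGA and its longer form CTTTGAT, which contains the core, were searched on both strands. Windows were found for 6 of the 10 genes (Olfm4, Ascl2, Axin2, Ephb2, Ephb3 and, with 2 starts, Rnf43), 7 windows in all. None of these 7 held either motif, while 16% of all 32851 windows of this length held the core and 3.73% the longer form. The absence says only that these letters are not in these 300 bases. Base composition differed among the windows, with 70% G or C in that of Axin2, 66.7% in that of Ephb3 and 52.3% in that of Olfm4.

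Lgr5 (chr10:115450311-115587780, minus strand of mm10, as are all positions below) encodes the receptor for R-spondins, which raise the response of a cell to Wnt. Its level in stem-like cells was 289, 208 and 243 CPM in mutant cultures 1, 2 and 3, against 263 and 264 CPM in control cultures 1 and 2. Both control values lay within the mutant range, and mutant culture 2 was the lowest of the 5. Over all 5 cultures the mean was 253 ± 30.3 CPM (SD, n = 5) in stem-like cells and 7.98 ± 5.29 CPM in enterocyte-like cells, a ratio of 31.7, with stem-like cells higher in 5 of 5 cultures. Cycling-like cells held 110 ± 26.7 CPM, goblet/Paneth-like cells 75.9 ± 36.7 CPM and enteroendocrine-like cells 68.5 ± 29.1 CPM. In the order of the 12 clusters, the stem-like one came first, but the low-depth clusters 7 and 11 followed at 208 ± 70.8 and 174 ± 94.8 CPM with overlapping ranges. Below them, each cluster's range overlapped that of the next. Within the enterocyte-like class the cluster led by Ly6d and Anxa1 stood highest at 17.8 ± 18.2 CPM (n = 4), and the cluster led by Apoa1 lowest at 3.12 ± 2.38 CPM on 4 counts in all.

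After each cell was thinned to 3832 counts, which left 228 stem-like and 219 enterocyte-like cells, Lgr5 was found in 57.0% of stem-like cells (95% exact binomial interval 50.3 to 63.5%) and in 1.83% of enterocyte-like cells (0.5 to 4.61%). These intervals cover counting error only. Without thinning the shares were 90.2% of 234 stem-like cells at a median of 18700 counts and 10.3% of 232 enterocyte-like cells at a median of 27077 counts. The enterocyte-like share, read as the background in cells off the crypt base, lay far below the stem-like one at both depths. Thinned shares in the other classes were 33.8% in cycling-like, 25.7% in goblet/Paneth-like and 10% in enteroendocrine-like cells.

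Olfm4 (chr14:79984081-80023139) encodes a secreted glycoprotein used as a marker of crypt base stem cells. It stood at 4857, 5297 and 3141 CPM in stem-like cells of mutant cultures 1, 2 and 3, against 4323 and 2755 CPM in those of control cultures 1 and 2. The groups overlapped, and the 2 lowest cultures were of different genotype. The mean fell off steeply across the classes, with 4075 ± 1093 CPM in stem-like cells, 1404 ± 232 CPM in cycling-like cells, 465 ± 390 CPM in enteroendocrine-like cells, 280 ± 198 CPM in goblet/Paneth-like cells and 109 ± 123 CPM in enterocyte-like cells. The cycling-like class was not uniform: its cluster led by Pclaf and Clspn, genes of DNA replication, held 2003 ± 620 CPM, and the cluster led by histone genes and Ube2c held 1231 ± 289 CPM. The histone-led cluster was the lower one in 5 of 5 cultures. Unnamed cluster 9, led by 2610528A11Rik, Sult1c2, Rflnb and Ndrg2, was low for this gene at 246 ± 147 CPM (n = 4). The stem-like cluster exceeded it 16.6-fold.

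Olfm4 was found in 87.3% of thinned stem-like cells and 13.2% of thinned enterocyte-like cells, the highest share of any of the 10 genes in the enterocyte-like class. Its counts were spread unevenly among stem-like cells. The median stem-like cell held 65.5 counts and the highest 375, and the top 10% of cells held 29.5% of the counts. In cycling-like cells the top 10% held 42.6% of the Olfm4 counts.

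Smoc2 (chr17:14279506-14404790), a secreted matrix protein and stem cell marker, varied least of the 10 genes in stem-like cells relative to its mean. It measured 354, 364 and 377 CPM in mutant cultures 1, 2 and 3, against 360 and 384 CPM in control cultures 1 and 2. The mean was 368 ± 12.3 CPM (SD, n = 5), and the genotypes overlapped. Cycling-like cells held 213 ± 30.5 CPM and were lower than stem-like cells in 5 of 5 cultures, by a ratio of 1.73. Enteroendocrine-like cells followed at 183 ± 91.4 CPM, goblet/Paneth-like cells at 144 ± 63.9 CPM and enterocyte-like cells at 17.6 ± 7.09 CPM. Unnamed cluster 9 was lower than the stem-like cluster by 4.87-fold for Smoc2 and by 3.53-fold for Lgr5. Thinned shares were 74.6% of stem-like, 55.0% of cycling-like, 42% of enteroendocrine-like and 3.65% of enterocyte-like cells.

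Ascl2 (chr7:142966829-142969264, minus strand) encodes a basic helix-loop-helix transcription factor that holds the stem cell state. Unlike the 3 genes above, its level hardly separated stem-like from cycling-like cells. Stem-like cells held 146, 137 and 136 CPM in mutant cultures 1, 2 and 3, against 163 and 140 CPM in control cultures 1 and 2. Cycling-like cells held 153, 118 and 164 CPM in the mutants, against 123 and 140 CPM in the controls. The mean log2 difference of stem-like over cycling-like cells was 0.06 ± 0.26 (SD, n = 5), and stem-like cells were higher in 2 of 5 cultures. By single clusters, the cycling-like one led by Pclaf came first at 155 ± 28.0 CPM, with a range that overlapped that of the stem-like cluster. Enteroendocrine-like cells held 72.8 ± 34.0 CPM, goblet/Paneth-like cells 52.3 ± 24.6 CPM and enterocyte-like cells 8.22 ± 4.51 CPM. In thinned cells it was found in 40.2% of cycling-like and 36.0% of stem-like cells, and in 2.74% of enterocyte-like cells. As a result 43.8% of all Ascl2 counts came from cycling-like cells and 20% from stem-like cells, where for Olfm4 the shares were 33.3% and 39.4%.

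Myc (chr15:61985391-61990374), a transcription factor that drives growth and ribosome synthesis, was spread most widely. It stood at 92.3, 95.9 and 93.9 CPM in stem-like cells of mutant cultures 1, 2 and 3, against 109.5 and 96.4 CPM in those of control cultures 1 and 2. The 3 mutant values lay below both control values, with a gap of under 1 CPM between the nearest. Cycling-like cells held 77.8 ± 5.85 CPM, goblet/Paneth-like cells 63.9 ± 25.8 CPM, enterocyte-like cells 30.9 ± 9.41 CPM and enteroendocrine-like cells 27.7 ± 14.7 CPM, the last on 17 counts. Its level within the enterocyte-like class ran over a wide range, with 83.6 ± 44.2 CPM (n = 4) in the cluster led by Ly6d and Anxa1, 23.3 ± 12.8 CPM in the cluster led by Cdkn2b and 12.2 ± 12.7 CPM in the cluster led by Apoa1. By single clusters, low-depth cluster 7, the one with a high mitochondrial share, came first for Myc at 114 ± 22.1 CPM. It also came first for Axin2, Rnf43 and Ephb3. Unnamed clusters 9 and 3 reached 111 ± 30.3 and 95.1 ± 22.0 CPM for Myc, and the ranges of all 3 overlapped that of stem-like cells.

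The remaining Wnt targets that act back on the pathway are Axin2, a scaffold of the complex that degrades beta-catenin, and Rnf43 and Znrf3, ubiquitin ligases that remove Wnt receptors from the cell surface. Axin2 (chr11:108920349-108950783) held 146, 112 and 170 CPM in stem-like cells of mutant cultures 1, 2 and 3, against 129 and 113 CPM in control cultures 1 and 2, and the groups overlapped. Its class means were 134 ± 24.3 CPM in stem-like, 83.6 ± 41.8 CPM in enteroendocrine-like, 83.4 ± 14.3 CPM in cycling-like, 63.9 ± 11.4 CPM in goblet/Paneth-like and 10.4 ± 5.50 CPM in enterocyte-like cells. The middle 3 classes overlapped within their SDs, while stem-like cells exceeded cycling-like cells 1.61-fold and in 5 of 5 cultures.

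Rnf43 (chr11:87662722-87735539) measured 19.2, 41.7 and 47.0 CPM in stem-like cells of mutant cultures 1, 2 and 3, against 29.8 and 55.3 CPM in control cultures 1 and 2. Both genotypes held a low and a high culture, so the groups overlapped. Stem-like cells averaged 38.6 ± 14.3 CPM, cycling-like cells 22.1 ± 5.01 CPM and enterocyte-like cells 6.20 ± 3.29 CPM. Znrf3 (chr11:5276324-5444847, minus strand) measured 21.2, 17.7 and 26.4 CPM in stem-like cells of mutant cultures 1, 2 and 3, against 16.3 and 22.3 CPM in control cultures 1 and 2. Again the groups overlapped. The means of Znrf3 were 27.7 ± 12.5 CPM in enteroendocrine-like, 20.8 ± 3.96 CPM in stem-like, 18.2 ± 4.0 CPM in goblet/Paneth-like, 11.2 ± 2.15 CPM in cycling-like and 2.37 ± 0.936 CPM in enterocyte-like cells. Its first place in enteroendocrine-like cells rested on 19 counts and on 3 of 5 cultures, and the class did not differ from stem-like cells beyond its spread. Znrf3 was found in 3.95% of thinned stem-like cells and 0.913% of thinned enterocyte-like cells, so at this depth few cells of any class showed it.

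Ephb2 and Ephb3 encode receptors for ephrin-B ligands, which sort cells along the crypt. Ephb3 (chr16:21204755-21223305) held 9.83, 68.5 and 45 CPM in enteroendocrine-like cells of mutant cultures 1, 2 and 3, against 85.7 and 67.8 CPM in control cultures 1 and 2, on 40 counts in all. Mutant culture 1 was far below the others, with 7 cells of the class, against 9 and 8 in mutant cultures 2 and 3 and 16 and 14 in control cultures 1 and 2, and the genotypes overlapped through mutant culture 2. In stem-like cells it held 13.5, 28.2 and 21.8 CPM in the mutants, against 16.3 and 25.9 CPM in the controls. The mean of enteroendocrine-like cells was 55.4 ± 29.3 CPM and that of stem-like cells 21.1 ± 6.21 CPM, a ratio of 2.62, with enteroendocrine-like cells higher in 4 of 5 cultures. Enterocyte-like cells held 2.10 ± 0.933 CPM.

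Ephb2 (chr4:136647539-136835988, minus strand) was also highest in enteroendocrine-like and lowest in enterocyte-like cells. Enteroendocrine-like cells held 29.5, 34.2 and 101 CPM in mutant cultures 1, 2 and 3, against 61.9 and 74.0 CPM in control cultures 1 and 2, also on 40 counts. Stem-like cells held 32.7, 20.9 and 9.17 CPM in the mutants, against 24.0 and 28.6 CPM in the controls. Mutant culture 3 thus had the highest of the 5 values in one class and the lowest in the other, and the genotypes overlapped in both. The ratio of enteroendocrine-like over stem-like means was 2.61 and held in 4 of 5 cultures, while goblet/Paneth-like cells at 29.4 ± 10.2 CPM, cycling-like cells at 23.1 ± 4.0 CPM and stem-like cells at 23.1 ± 8.97 CPM lay within their spread. For Ephb3 the goblet/Paneth-like mean was 18.5 ± 11.1 CPM and the cycling-like mean 17.6 ± 4.12 CPM.

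In shares of thinned cells, enteroendocrine-like cells again came first for both receptors. Ephb3 was found in 32.0% of 50 thinned enteroendocrine-like cells (95% exact binomial interval 19.5 to 46.7%) and in 7.89% of stem-like cells. In thinned enterocyte-like cells it was found in 0 of 219, which at that depth allows a share of cells with a count of up to 1.37% (3 of 219). Ephb2 was found in 26.0% of enteroendocrine-like cells (14.6 to 40.3%), 10.8% of goblet/Paneth-like cells, 9.0% of cycling-like cells, 8.77% of stem-like cells and 4.57% of enterocyte-like cells. Without thinning, 50% of enteroendocrine-like cells held Ephb3 at a median depth of 9724 counts, against 30.8% of stem-like cells at 18700 counts and 4.74% of enterocyte-like cells at 27077 counts. Ephb2 was then found in 46.3% of enteroendocrine-like, 50.2% of cycling-like, 34.2% of stem-like and 16.4% of enterocyte-like cells, so that the deeper cycling-like cells, with a median of 32357 counts, came first.

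**Figure D2:**
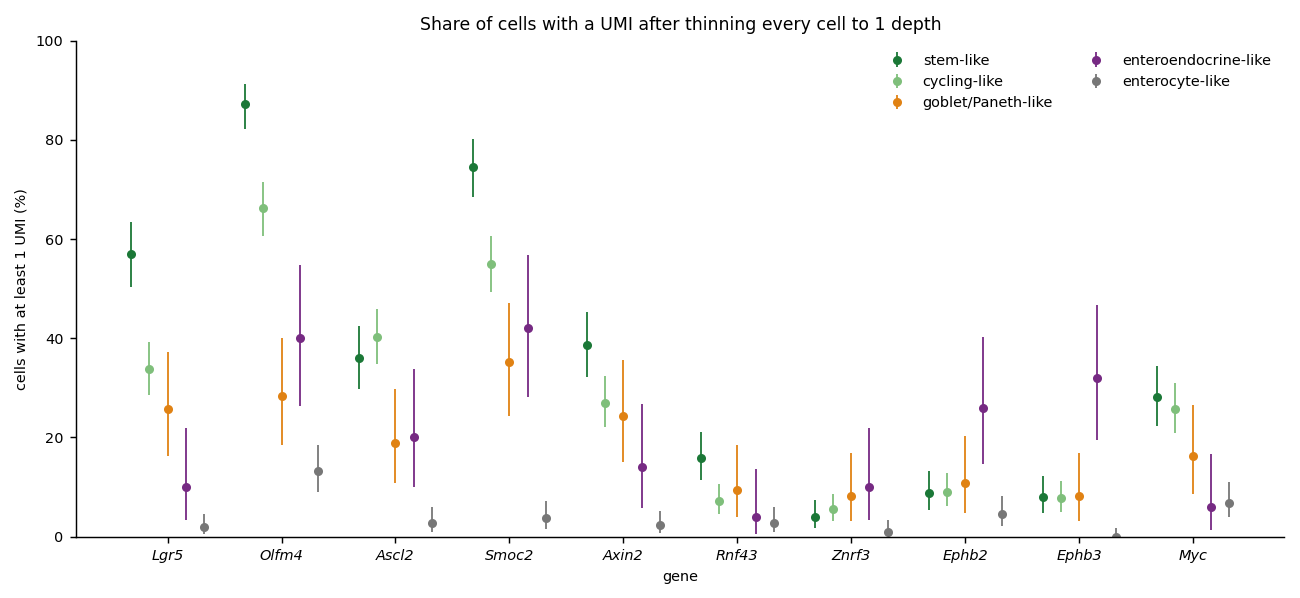
Share of cells (percent, vertical axis) with at least 1 count of each gene after thinning every cell to 3832 counts, in the 5 named classes, with 95% exact binomial intervals as bars. Lgr5, Olfm4, Smoc2 and Axin2 are highest in stem-like and lowest in enterocyte-like cells, and Ephb2 and Ephb3 are highest in enteroendocrine-like cells.

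Counted together in thinned cells, a stem-like cell held a median of 4 of the 10 genes, a cycling-like cell 3, a goblet/Paneth-like or enteroendocrine-like cell 2 and an enterocyte-like cell 0. Of the stem-like cells 22.4% held at least 5 of the genes and 2.19% held none, while 69.9% of the enterocyte-like cells held none.

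Genes of the same pathway outside the group were read in the same classes. Wnt3, a Wnt ligand made by Paneth cells, held 192 ± 70.9 CPM in enteroendocrine-like and 141 ± 21.0 CPM in goblet/Paneth-like cells, but 16.3 CPM in stem-like, 4.98 CPM in cycling-like and 1.36 CPM in enterocyte-like cells. The ephrin ligand Efnb2 had another order than its receptors, with 44.0 CPM in enterocyte-like cells, 13.2 CPM in goblet/Paneth-like cells, 10 CPM in stem-like cells, 6.82 CPM in cycling-like cells and 6.40 CPM in enteroendocrine-like cells. Efna1, a ligand of EphA receptors, was also highest in enterocyte-like cells at 85.9 CPM. Among other Wnt targets, Sp5, a transcription factor, held 46.4 ± 4.13 CPM in stem-like and 44.8 ± 40.8 CPM in enteroendocrine-like cells (SD, n = 5). In enterocyte-like cells Sp5 held 1.07 CPM. Nkd1, an inhibitor of Dishevelled, held 37.7 ± 34.3 CPM in enteroendocrine-like and 11.6 ± 8.16 CPM in stem-like cells and had no count in enterocyte-like cells. Bambi, a decoy receptor of the BMP pathway, held 198 ± 122 CPM in enteroendocrine-like cells and 3.82 ± 2.83 CPM in stem-like cells. The Wnt targets Ccnd1 and Cdca7 had the opposite order. Ccnd1 held 238 ± 21.1 CPM in stem-like and 60.3 ± 54.1 CPM in enteroendocrine-like cells. Cdca7 held 172 ± 18.3 CPM in stem-like and 71.5 ± 16.6 CPM in enteroendocrine-like cells.

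To see which genes had the most similar profile, log2(CPM + 1) was correlated over 49 sums of cluster and culture with at least 10 cells, across 10181 genes. The sums came from all 12 clusters, those of low depth included, where a few counts set the level of a sparse gene. All of these sums come from 1 pooled RNA library, those of a culture share its depth, and all entered the clustering. The coefficients are therefore descriptions. Lgr5 was most like Slc12a2 (Pearson r = 0.946), Cd44 (0.934) and Nedd4 (0.921), and Axin2 was most like Nedd4 (0.926), Slc12a2 (0.918) and Zfp703 (0.916). Smoc2 was closest to Cdca7 (0.95) and Olfm4 to Clca3b (0.943). Ascl2 was closest to Uhrf1 (0.884), which maintains DNA methylation at replication, and Myc to Mettl1 (0.911), a tRNA methyltransferase, and Ftsj3 (0.877), a ribosome factor. The nearest genes of Ephb2 were Zfp704 (0.871), Soat1 (0.848) and Tspan12 (0.839), and those of Ephb3 were Chd4 (0.857), Mpzl1 (0.857) and Atm (0.851). Rnf43 peaked at 0.840 with Rpa1 and Znrf3 at 0.818 with Timp2.

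Among the 10 genes, Lgr5 had r of 0.93 with Smoc2, 0.92 with Axin2 and 0.91 with Olfm4. The lowest pairs were Znrf3 with Myc at 0.28 and Znrf3 with Rnf43 at 0.37, although Znrf3 had r of 0.77 with Axin2 and 0.74 with Lgr5. Low-depth cluster 11 was among the sums, with 6 Znrf3 counts in all. There Znrf3 and Myc stood at 0 and 71.85 CPM in mutant culture 2 and at 67.49 and 0 CPM in mutant culture 3. How far such sums set the low values was not tested. Myc had no r above 0.65 with any of the other 9 genes. Cell by cell within the stem-like class, Lgr5 and Olfm4 had a median r of 0.53 over the 5 cultures (0.36 to 0.66, above 0 in 5 of 5), Olfm4 and Smoc2 of 0.45 (0.32 to 0.64), and Lgr5 and Smoc2 of 0.43 (0.37 to 0.55). These were the highest medians of all pairs. Most other pairs differed in sign between cultures, such as Lgr5 with Ascl2 at 0.15 (-0.20 to 0.48) and Lgr5 with Myc at 0.006 (-0.26 to 0.18). Ephb2 with Myc had a median of -0.15 and was above 0 in 0 of 5. The cells of all cultures share 1 library pool, and depth per cell was scaled.

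**Figure D3:**
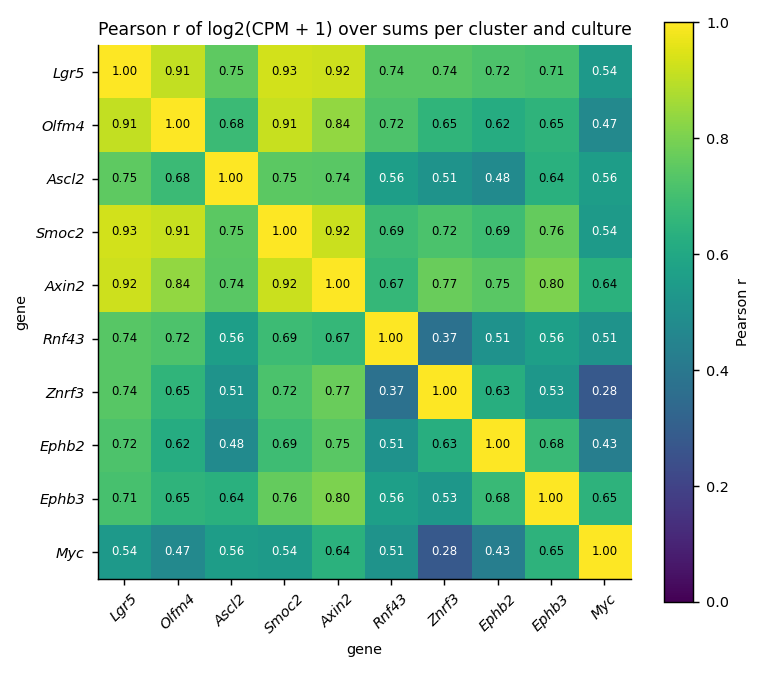
Pearson r (colour and number) between the log2(CPM + 1) profiles of each pair of the 10 genes over 49 sums of cluster and culture, low-depth clusters included. Lgr5, Olfm4, Smoc2 and Axin2 form the block of highest values, and the lowest value is 0.28, between Znrf3 and Myc.

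Whether the Etv1 mutation went with a change in these genes was tested on counts summed per culture, 3 mutant against 2 control. Over all cells none of the 10 passed, while 1 of the 10 had an unadjusted edgeR p under 0.05, beside 337 of all 11061 genes tested. Of these 11061 genes edgeR called 1 (0.00904%), the gut hormone gene Pyy, and DESeq2 called 9 genes, again with none of the 10. The edgeR count was 6 without control culture 1, 5 without control culture 2 and 3 without mutant culture 2. In such sums a change in the number of cells of a type and in RNA per cell cannot be told apart. Stem-like cells made up 8.87, 16.4 and 22.3% of the cells of mutant cultures 1, 2 and 3, against 17.6 and 17.8% in control cultures 1 and 2, so the mutants spread on both sides of the controls. Cycling-like cells made up 30.1, 22.8 and 14.7% in the mutants, against 18.9 and 20.6% in the controls.

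Lgr5 over all cells stood at 116, 74.0 and 106 CPM in mutant cultures 1, 2 and 3, against 114 and 136 CPM in control cultures 1 and 2, a log2 difference of -0.35 ± 0.18 (SE; adjusted p = 1.0). The mutant range reached past the lower control. Olfm4 stood at 1705, 1574 and 1198 CPM in the mutants, against 1443 and 1300 CPM in the controls, with 0.11 ± 0.15, and so overlapped. Myc stood at 76.0, 68.0 and 67.3 CPM in the mutants, against 78.6 and 86.1 CPM in the controls, with -0.23 ± 0.09. It was the one gene of the 10 whose groups did not overlap, as held for 7.8% of all genes tested in the lower direction. Adjusted p was 1.0 for all 10.

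The feedback genes overlapped between genotypes over all cells. Axin2 stood at 82.0, 54.0 and 84.0 CPM in mutant cultures 1, 2 and 3, against 69.2 and 79.4 CPM in control cultures 1 and 2, with a log2 difference of -0.03 ± 0.19 (SE). Rnf43 stood at 19.1, 21.1 and 26.0 CPM in the mutants, against 19.9 and 29.4 CPM in the controls. In both genes the control values fell inside or beside the mutant range, with mutant culture 2 the lowest for Axin2. Ephb3 stood at 14.4, 14.1 and 17.7 CPM in the mutants, against 16.3 and 22.4 CPM in the controls, with -0.35 ± 0.18, and Ephb2 at 24.1, 14.7 and 24.3 CPM in the mutants, against 21.1 and 24.6 CPM in the controls, with -0.14 ± 0.22. The Eph receptors therefore overlapped too. Ascl2 stood at 116, 80.6 and 99.2 CPM in the mutants, against 108 and 116 CPM in the controls, and mutant culture 2 was the lowest of the 5 for this gene as for Lgr5, Axin2, Ephb2, Ephb3 and Znrf3. Smoc2 lay between 170 and 200 CPM in the mutants, against 178 and 212 CPM in the controls. Fold changes of 9 genes lay below 0 and their median was -0.18, beside 49.0% below 0 and a median of 0.00 over all genes tested.

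Within stem-like cells, where 7 of the 10 genes had their highest class level, 0 of the 10 had an unadjusted edgeR p under 0.05, beside 509 of all 7696 genes tested. There edgeR called 3 of the 7696 genes (0.039%), namely S100a6, Cenpa and Igfbp4, all higher in mutants, and none of the 10. That count of 3 was 10 without mutant culture 1, 1 without mutant culture 2 or 3, 21 without control culture 1 and 16 without control culture 2. The log2 differences ran between -0.49 ± 0.34 (SE) for Ephb2 and 0.28 ± 0.16 for Olfm4, with adjusted p of 0.807 for Olfm4, 0.847 for Ephb2, 0.876 for Lgr5 and 1.0 for Ephb3. Of the 10, 6 lay below 0 with a median of -0.12, beside 50.4% of all genes. The mutant Myc values lay wholly below the controls, as those of 8.41% of all genes tested did, with a difference of -0.17 ± 0.16 and adjusted p = 0.897. The difference of Olfm4 depended on 1 control: without control culture 1 it was 0.66 ± 0.09 and passed (adjusted p = 5.03e-10), and without control culture 2 it was -0.03 ± 0.08 (adjusted p = 0.996). In both fits the lone control was taken to vary like the mutant cultures.

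Cycling-like cells gave 1 call in 9230 genes (0.0108%), the histone gene H3c7, lower in mutants, and none of the 10. The count was 6 without mutant culture 1, 2 without mutant culture 2 or control culture 1 and 0 without mutant culture 3. Lgr5 held 110, 74.6 and 98.4 CPM in cycling-like cells of mutant cultures 1, 2 and 3, against 117 and 148 CPM in those of control cultures 1 and 2. All 3 mutant values lay below both controls, and the log2 difference was -0.49 ± 0.16 (SE; adjusted p = 0.964). It passed in one alternative alone, with no filter on low counts (adjusted p = 0.0200), and with each culture left out in turn it ran between -0.67 and -0.31 with adjusted p of 0.317 to 1.0. Myc held 73.1, 77.6 and 71.1 CPM in the mutants, against 82.4 and 84.8 CPM in the controls, a difference of -0.17 ± 0.11 that did not pass. Olfm4 held 1728, 1459 and 1105 CPM in the mutants, against 1278 and 1449 CPM in the controls, and the groups overlapped. For Lgr5 and Myc the groups did not overlap in the lower direction, which held for 10.1% of all genes tested. In this class 8 of the 10 lay below 0 with a median of -0.21, beside 49.5% of all genes. An unadjusted edgeR p under 0.05 was found for 1 of the 10, beside 451 of all 9230 genes tested.

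**Figure D4:**
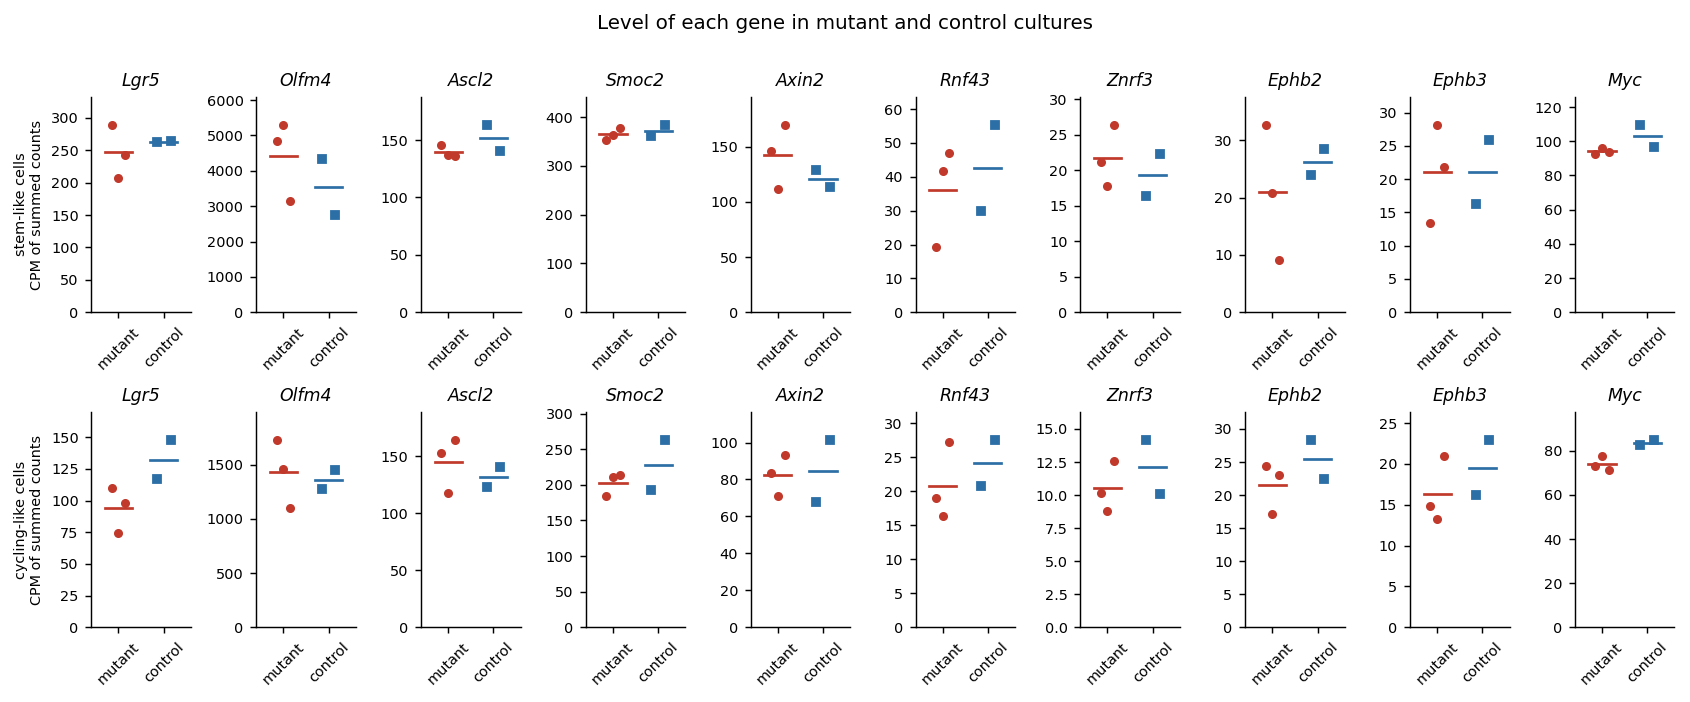
Level of each gene (CPM, vertical axis) by culture in stem-like cells (upper row) and cycling-like cells (lower row), with Etv1 mutant cultures on the left and control cultures on the right of each panel, and a line at the group mean. The groups overlap for most genes, and the Lgr5 values of mutant cycling-like cells, 74.6 to 110 CPM, lie below both control values.

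In enterocyte-like cells edgeR called 0 of 7310 genes (0%), with 189 at an unadjusted p under 0.05 and 0 called by DESeq2, and 2 by edgeR without mutant culture 2 or control culture 1. There 6 of the 10 genes had enough counts to be tested, and 4 of these lay below 0. Whether the genotype difference itself differed between stem-like and cycling-like cells was tested with culture as a block, which called 10 of 8492 genes (0.118%) and none of the 10, against 1 gene without mutant culture 1, 2 without control culture 1 and 0 by DESeq2. The Lgr5 difference was 0.36 ± 0.16 (SE) higher in stem-like than in cycling-like cells (adjusted p = 0.822). For Olfm4 it was 0.24 (adjusted p = 0.914), but 0.68 without control culture 1 (adjusted p = 0.0137) and -0.20 without control culture 2.

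**Figure D5:**
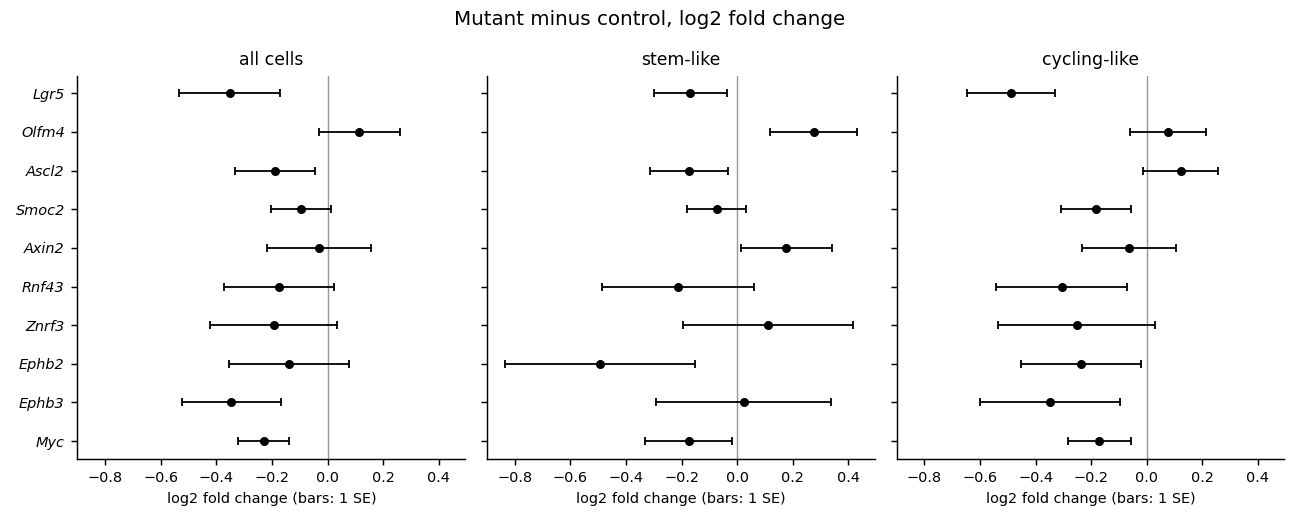
Log2 fold change (Etv1 mutant minus control, horizontal axis) of each of the 10 genes in all cells, stem-like cells and cycling-like cells, with bars of 1 SE. All points lie between -0.49 and 0.28, and none passed an adjusted p of 0.05.

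The share of stem-like cells with a count was compared as well. After thinning, Smoc2 was found in 80.0, 82.6 and 76.7% of stem-like cells of mutant cultures 1, 2 and 3, against 69.1 and 69.5% in those of control cultures 1 and 2. All mutant shares lay above both controls, and the two-sided exact permutation p of 0.1 is the smallest that the 10 splits of the cultures allow. Adjusted over the 10 genes it was 1.0, and the other 9 genes had exact permutation p-values between 0.3 and 1. The separation was seen at that depth alone of the 3 tried: at 10809 counts a cell the Smoc2 shares were 95.7, 97.8 and 97.3% in mutants, against 92.0 and 96.3% in controls (exact permutation p = 0.3), and without thinning the exact permutation p was 0.7. At 10809 counts Ascl2 reached the smallest exact permutation p of 0.1, lower in mutants, and without thinning Axin2 did, higher in mutants, with adjusted values of 0.833 and 0.75.

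Among listed genes of the same pathway and tissue compartment, 1 was called between genotypes. Igfbp4, which encodes an insulin-like growth factor binding protein of crypt base cells, rose in stem-like cells to 69.2, 49.0 and 59.6 CPM in mutant cultures 1, 2 and 3, against 10.6 and 9.82 CPM in control cultures 1 and 2. The groups lay far apart, with a log2 difference of 2.44 ± 0.29 (SE; adjusted p = 8.09e-05). Over all cells the difference was 2.85 ± 0.35 and did not pass (adjusted p = 0.245), and in cycling-like cells it was 3.22 (adjusted p = 0.0536). DESeq2 called Igfbp4 in both, as did edgeR without mutant culture 2, and in cycling-like cells edgeR also called it without mutant culture 1 and when clustering used the 10 genes. Igfbp4 was the only called gene of the 14 other crypt base genes tested in stem-like cells, of which 4 lay above and 10 below 0. Gkn3 of the same list averaged 30.4 ± 11.2 CPM in mutant and 13.2 ± 8.54 CPM in control stem-like cells without passing.

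Of the Wnt ligands, receptors and co-receptors, 10 of 15 were tested over all cells, with 5 above and 5 below 0 and none called. Fzd5, a Wnt receptor, averaged 25.8 ± 1.74 CPM in mutant and 18.5 ± 0.530 CPM in control cultures, a difference of 0.48 that did not pass. The 13 genes of the beta-catenin destruction complex gave 6 above and 7 below 0, the 8 tested TCF factors and co-factors 2 above and 6 below, and the 17 tested other Wnt targets 3 above and 14 below with a median of -0.14, none called. In stem-like cells these lists gave 6 and 6, 3 and 3, and 3 and 10, also with none called. Of all genes tested, 49.0% lay below 0 over all cells, 50.4% in stem-like and 49.5% in cycling-like cells. Whether any list shifted as a whole was not tested. Mex3a, an RNA-binding protein of crypt progenitors, averaged 8.75 CPM in mutant and 18.9 CPM in control stem-like cells, a difference of -1.13 that did not pass. Of the BMP and villus-side regulators, 1 of 8 tested in stem-like cells lay above 0 and 7 below. Their target Id1 stood at a difference of -0.78 (adjusted p = 0.475). Of the Myc partners and targets, 3 of 14 lay above 0 over all cells and 8 of 13 in cycling-like cells, and of the ephrins and other Eph receptors 4 of 5 over all cells, none called in either.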

How the data were processed

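RNA was measured in single cells of 5 pooled cultures. The authors deposited 1 matrix of estimated counts per gene and barcode and 1 matrix of hashtag counts; per the labels, hashtags A0310 to A0312 marked mutant and A0308 and A0309 control cultures. The build mm10 and the tools alevin, Seurat 4.3.0, Salmon 1.4.0 and Cell Ranger 6.1.0 stand in the submitters' processing notes; their roles are not given in the sources used here. The 10 genes, the lists and the tests were chosen with earlier results of these data known.

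Of 3409 barcodes, HTODemux (Seurat 5.3.0, quantile 0.99) gave 1814 to 1 culture, 273 to several (removed as doublets) and 1322 to none. Kept were barcodes with at least 500 genes and at most 25% mitochondrial counts. Cells were scaled to 10000 counts and clustered with scanpy 1.11.5 (2000 variable genes, 30 components, 15 neighbours, Leiden resolution 0.8) without the 10 genes. A name needed 3 markers at a log2 fold of 0.5 in 25% of cells. It was withheld where the 10 leading genes held more markers of another list. It was also withheld where depth lay more than 3-fold below the culture median and no leading gene was a marker of the list. Reading leading genes from those in at least 25% of cells was chosen after seeing the data, and the name of the stem-like cluster depends on it. Doublets within a culture were not sought.

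Counts were summed per culture and class, rounded, and tested with edgeR 4.0.16 (quasi-likelihood, TMM, filterByExpr), with Benjamini-Hochberg adjustment over all genes tested; DESeq2 1.42.0 was an alternative. After the fits, the edgeR function was also run on counts simulated from the means, library sizes and dispersions of these data. All levels, also those over all cells and those of list genes by genotype, are CPM of summed counts without TMM scaling. Class and cluster levels were taken where a culture had at least 5 cells. Thinning to 3832 counts left out 144 of 1432 cells. Genes named are the 10, the 3 most similar to each, and genes of the lists that passed or had the smallest p. No fixed rule chose which other list genes were described by class: these were picked after their values were seen. A gene's reads shared with paralogs could be split by the authors' counting.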

Additional observations from a re-analysis of the deposited data

Results flagged for a closer look

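The 10 genes also had counts in barcodes that no comparison used, those with no hashtag and those with several. In the 1054 barcodes with no hashtag (median 5509 counts a barcode), Lgr5 stood at 100.3 CPM, Olfm4 at 1469 CPM, Ephb3 at 15.2 CPM and Myc at 66.4 CPM. In the 239 barcodes with several hashtags (median 24768 counts), Lgr5 stood at 88.9 CPM, Olfm4 at 1208 CPM, Ephb3 at 15.7 CPM and Myc at 66.1 CPM. These levels lay far above the limit that 3 counts give, 0.233 CPM with no hashtag and 0.452 CPM with several. In the 1432 cells of 1 culture (median 22323 counts) the levels were 110 CPM for Lgr5, 1458 CPM for Olfm4, 17.0 CPM for Ephb3 and 76.0 CPM for Myc. The barcodes without a single hashtag cannot be given to a genotype, so no comparison was made with them.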

How the results depend on the processing

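Over the 10 genes and 3 comparisons (all, stem-like and cycling-like cells), 349 alternative values were computed. Of these, 317 kept their direction and their side of the threshold, 30 changed sign, all without passing, and 2 newly passed: Olfm4 in stem-like cells without control culture 1 and Lgr5 in cycling-like cells with no filter on low counts. For 15 of the 30 pairs of gene and comparison no alternative changed the sign. No paired analysis was possible because the labels give no replicate numbers that link a mutant to a control culture.

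The count of genes called over all cells (1) was 2 with no filter, 9 by DESeq2, 2 with MULTIseqDemux hashtag calls and 1 to 6 with 1 culture left out. In stem-like cells (3) it was 23 with no filter, 1 when clustering used the 10 genes and 1 to 21 with 1 culture left out. In cycling-like cells (1) it was 46 with no filter, 2 by DESeq2, 0 with MULTIseqDemux, 0 at a limit of 15% mitochondrial counts, 3 when clustering used the 10 genes and 0 to 6 with 1 culture left out. In enterocyte-like cells (0) it was 27 with no filter and 0 to 2 with 1 culture left out. The term for genotype by class (10) gave 0 by DESeq2 and 1 to 9 with 1 culture left out. The cause of these changes was not tested.

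Sign changes with 1 culture left out, as log2 ranges over all cells, were -0.20 to 0.0069 for Smoc2, -0.14 to 0.15 for Axin2, -0.42 to 0.11 for Rnf43 and -0.25 to 0.073 for Ephb2. In stem-like cells they were -0.031 to 0.66 for Olfm4, -0.57 to 0.29 for Rnf43, -0.075 to 0.34 for Znrf3 and -0.25 to 0.38 for Ephb3. In cycling-like cells they were -0.082 to 0.22 for Olfm4, -0.38 to 0.063 for Smoc2, -0.32 to 0.26 for Axin2 and -0.48 to 0.0020 for Znrf3. Clustering with the 10 genes gave stem-like values of 9.613e-05 for Smoc2, 0.028 for Rnf43, -0.15 for Znrf3 and 0.088 for Myc, and a cycling-like value of -0.018 for Olfm4. MULTIseqDemux gave stem-like values of 0.055 for Rnf43 and 0.064 for Myc. The 15% limit gave Axin2 0.0036 over all cells and 0.12 in cycling-like cells. Without the low-depth clusters Axin2 was 0.022 over all cells, and with equal cell numbers Ephb2 was 0.0054 over all cells and Rnf43 0.17 in cycling-like cells. DESeq2 gave Ephb3 -0.0016 in stem-like cells.

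The number of the 10 genes below 0 in stem-like cells was 4 with MULTIseqDemux and 4 when clustering used them, against 6. Stem-like over cycling-like levels were higher for 9 of the 10 genes, and for 8 to 10 under the alternatives. Without the cells with tuft markers, an alternative chosen after seeing the data, stem-like cells gave 2 calls and 6 genes below 0. Low counts limited Znrf3, Ephb2 and Ephb3 in enteroendocrine-like cells, and 5 cultures limited every genotype test.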
